A study of Mus musculus with 43 samples.

Results

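The 28S rRNA is the main RNA of the large ribosomal subunit, and fragments cut from rRNAs (rRNA-derived small RNAs, rsRNAs) are abundant in the epididymis and in sperm. The genome also holds many partial 28S rRNA sequences scattered outside the ribosomal DNA arrays, which RepeatMasker annotates as rRNA repeats. In the count tables each such repeat copy is an entry of its own, named rmsk_28S_ followed by a number. All entries with that prefix were taken as members, which gave 243 copies over the 3 tables. Tissue libraries listed 203 of them among 4890 RNAs, fluid libraries 124 among 3178 and sperm libraries 239 among 4323. Of the copies, 123 were listed in all 3 tables, 76 in tissue and sperm, 39 in sperm alone, 4 in tissue alone and 1 in fluid and sperm.

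Short pieces of 28S rRNA match the 28S reference sequence and many copies equally well, and the study counted a read on each entry that it matched equally well. A count on a copy therefore says that reads fitting its sequence were present, and not that the copy itself was transcribed. The same read can stand behind many copies, so they were not treated as independent measurements. The tables give neither length nor position for a copy, so levels of different copies were ordered by counts and not per length.

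Small RNAs were sequenced from WT and homozygous Rnase9-12 KO mice of the FVB strain aged 8 to 12 weeks. The KO line lacks a chromosome 14 cluster of epididymal RNase A family genes and was made with CRISPR/Cas9. From epididymis tissue there were 3 libraries per genotype for the caput and for the cauda, while the corpus had 3 WT and 2 KO ones. Luminal fluid freed of sperm and vesicles gave 3 libraries per genotype for each segment, and cauda sperm 4 per genotype. Tissue libraries were made by ARM-seq, which removes certain base methylations before reverse transcription, and fluid and sperm libraries by OTTR-seq, which joins adapters through template jumping. RNA was treated with polynucleotide kinase, which opens the 3′ phosphate ends that RNase A enzymes leave. The study describes the libraries of a group as biological replicates. Each fluid and sperm library pooled RNA of 3 mice, whereas pooling was not stated for tissue.

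Tissue libraries held 30142156 to 249732714 counts, fluid libraries 1948718 to 12320922 and sperm libraries 1134840 to 62128314. The KO corpus fluid libraries, at 1948718 to 3373869 counts, were all shallower than the WT ones, at 3989262 to 10172577. In sperm, 3 WT libraries and 1 KO library held 1134840 to 3618739 counts and the other libraries at least 42764979. The WT caput tissue library number 3 and all 6 caput fluid libraries carry a section label of cauda beside titles that name the caput, and were grouped by title. The RNases deleted in KO mice were not among the counted entries, so genotype could not be checked. Epithelial miRNAs of the miR-200 family (5 of 5 listed) summed to 7.57 to 25.9 CPM in tissue, whereas the listed leukocyte markers stayed at or below 0.161 CPM and the erythroid marker at or below 0.0538 CPM. Smooth muscle miRNAs (2 of 2 listed) summed to 20.6 to 215 CPM in tissue. Their median was above the epithelial one in each tissue group.

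28S copies took a small part of the counts in tissue and fluid libraries and a large part of those in sperm libraries. A read counts on each entry that it matches equally well, so these shares of counts are not shares of reads. The study's own percentages rested on a single primary mapping per read. In WT caput tissue they held 0.386%, 0.516% and 1.01% of counts. In WT corpus tissue they held 1.12%, 1.39% and 1.77%. In WT cauda tissue they held 4.61%, 4.84% and 6.42%, so that the 3 segments did not overlap in WT. In WT fluid the share was 0.350% to 0.476% in caput, 1.02% to 1.18% in corpus and 0.683% to 1.13% in cauda, where corpus and cauda overlapped. WT sperm libraries gave 33.6%, 34.8%, 35.5% and 41.5%. Library methods differed between tissue and the other materials and each table was scaled on its own, so these shares are set side by side without a test.

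**Figure D1:**
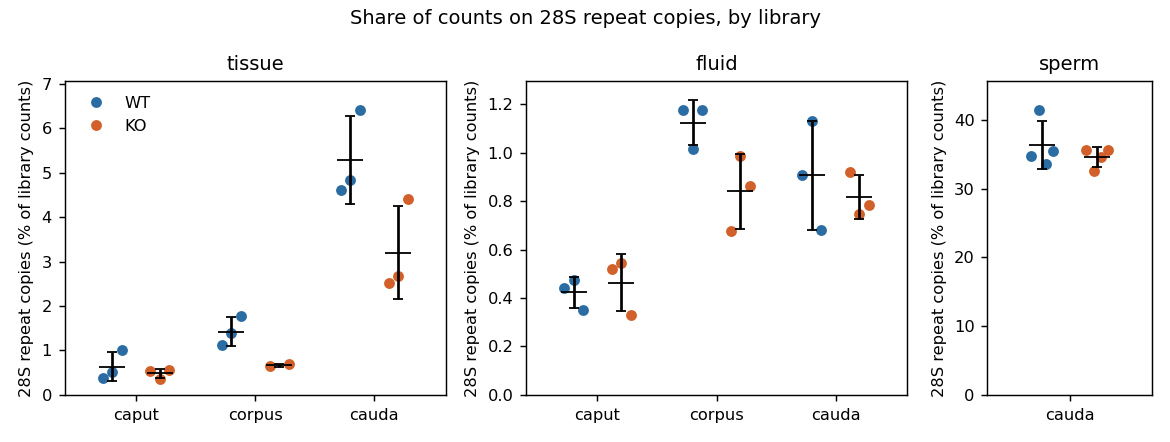
Share of library counts on 28S repeat copies (% of counts, y axis from 0 and different in each panel) by segment (x axis) in tissue, fluid and sperm. Points are libraries, horizontal marks are means and bars are SD; in corpus tissue, cauda tissue and corpus fluid every KO point lies below every WT point.

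The ratio of counts on copies to counts on the 2 full 28S rRNA sequences (28S_rRNA_1 and 28S_rRNA_2) also set the materials apart. Tissue libraries gave 0.374 to 0.913, fluid libraries 0.0387 to 0.321 and sperm libraries 1.15 to 1.55. In sperm, counts on copies thus exceeded those on the reference sequences in each of the 8 libraries. A read counts once on each entry that it matches equally well. The ratio therefore depends also on how many copies the reads match. The ratios were low in caput fluid, at 0.0387, 0.0591 and 0.0637 in WT and 0.0571, 0.0888 and 0.125 in KO, although 28S_rRNA_1 took 3.396% to 4.44% of counts in WT caput fluid. Between genotypes this ratio gave exact permutation p-values of 0.0857 or more in the 7 comparisons (0.35 or more after adjustment over them), with every KO library below every WT one in corpus fluid alone.

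A few copies held most of the counts. From 4 to 10 copies held 50% of the copies' counts in tissue, 3 to 12 in fluid and 15 to 18 in sperm. The 10 most counted copies held 62.2% of them on average in tissue, 54.5% in fluid and 36.1% in sperm. rmsk_28S_780, rmsk_28S_118, rmsk_28S_546, rmsk_28S_635 and rmsk_28S_487 were among the 10 most counted in all 3 tables. rmsk_28S_118, rmsk_28S_546 and rmsk_28S_635 carried counts within 10% of each other in every tissue library, which makes them 1 profile with 3 names.

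Other copies differed widely between materials in their part of the copies' counts. rmsk_28S_1000 had the highest mean CPM over all fluid libraries, with 1209, 872 and 743 CPM (counts scaled to library size, with TMM factors) in WT caput fluid and 1663, 1290 and 1352 CPM in WT cauda fluid, where rmsk_28S_780 was the most counted copy in each of the 3 libraries. rmsk_28S_1000 held 12.7% to 16.2% (3 libraries) of the copies' counts in WT cauda fluid, 0.528% ± 0.237 (SD, n = 4) in WT sperm and 0.00824% ± 0.00192 (SD, n = 3) in WT cauda tissue. The smaller part in sperm does not mean a lower level. Copies held 36.3% of all counts in WT sperm and 0.907% in WT cauda fluid on average. rmsk_28S_756, another copy among the most counted in fluid, averaged 190 CPM in WT cauda fluid against 0.325 CPM in WT cauda tissue and 41.3 CPM in WT sperm. rmsk_28S_893 ran the other way, with 0.891% ± 0.180 (SD, n = 3) of the copies' counts in WT cauda tissue and 0.0104% ± 0.00696 (SD, n = 4) in WT sperm. Over all copies with counts in both, log2 shares in WT cauda tissue and sperm correlated with a Pearson r of 0.83 (199 copies), and those of tissue and fluid with an r of 0.80 (123 copies). These correlations are across copies that share reads, and describe the make-up only.

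**Figure D2:**
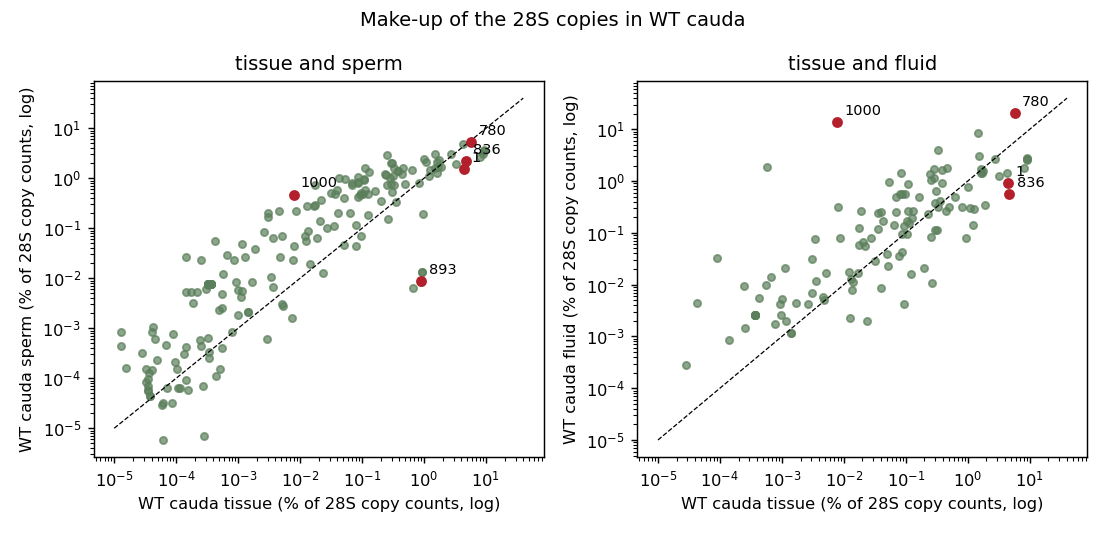
Percent of all 28S copy counts on each copy (from mean CPM, log axes) in WT cauda tissue (x) against WT cauda sperm (left) and fluid (right); each point is 1 copy, the dashed line marks equal shares and red points carry the copy's number. rmsk_28S_1000 lies far above the line in both panels, and rmsk_28S_893 far below it in sperm.

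Segments were compared within each genotype to describe how the copies change along the duct. The tissue columns carry the same number in each segment (WT1, WT2 and so on), so segments may share animals, whereas the fit took them as independent groups. A copy was called when edgeR's quasi-likelihood test gave an adjusted p under 0.05, adjusted over all RNAs of the table, with a log2 fold change above 1 or below -1. A minimum count filter left 165 of the 203 tissue copies, 100 of the 124 fluid copies and 174 of the 239 sperm copies. In WT tissue, 140 of the 165 copies were higher in cauda than in caput and 0 lower, whereas 15.7% of all 3488 RNAs tested were called higher and 7.28% lower. The median log2 fold change of the copies was 3.51 (quartiles 2.14 and 4.23) beside -0.05 for all RNAs. In KO tissue 128 copies were called higher in cauda and 0 lower, against 17.1% and 8.6% of all RNAs, with a median of 3.39. The call counts stayed between 117 and 148 when single libraries were left out of the WT comparison, and without the WT caput library labelled cauda the count was 148. With the replicate number as a block, 150 copies were called higher in WT and 143 in KO, and 0 lower in both (19.7% and 22.1% of all RNAs higher, 9.95% and 12.4% lower).

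The 4 copies with the smallest p in that comparison were rmsk_28S_390, rmsk_28S_873, rmsk_28S_874 and rmsk_28S_893. rmsk_28S_893 had 5.77, 12.4 and 5.62 CPM in WT caput tissue, 41.2, 40.6 and 35.1 CPM in corpus and 506, 710 and 305 CPM in cauda. Its log2 fold change from caput to cauda was 6.0 ± 0.46 (SE, adjusted p = 1.43e-07). rmsk_28S_390 had 7.18, 13.8 and 8.27 CPM in WT caput tissue and 525, 731 and 346 CPM in cauda, a log2 fold change of 5.78 ± 0.41 (SE, adjusted p = 1.43e-07). rmsk_28S_780, the most counted copy in caput, changed less, with 533, 642 and 1042 CPM in WT caput and 3369, 3137 and 3245 CPM in cauda (log2 fold change 2.14 ± 0.36, SE, adjusted p = 0.000283). Segments did not overlap for any of these 3 copies.

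The rise was shared by the 28S sequences, the 18S repeat copies and the mitochondrial rRNAs, but not by every rRNA entry. 28S_rRNA_1 rose from caput to cauda by a log2 fold change of 3.31 ± 0.46 (SE, adjusted p = 5.19e-05) and 28S_rRNA_2 by 3.37. Of the 18S repeat copies 31 of 31 were called higher, with a median of 3.62, as were both mitochondrial rRNAs. Of the 5S copies, whose genes lie in arrays of their own, 72 of 510 were called lower and 0 higher, with a median of -0.58, and of the tRNA fragments 67 of 606 were lower and 5 higher. miRNAs of smooth muscle (Mir143 and Mir145a, 2 of 2 listed) summed to 20.6 to 40.3 CPM in WT caput tissue and 107.7 to 215 CPM in WT cauda tissue. Their part in the rise was not tested. In bulk tissue, a different number of cells of a type and a different amount of RNA per cell cannot be told apart.

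From caput to corpus fewer copies passed the test. In WT tissue, 57 copies were called higher in corpus and 0 lower (9% and 2.81% of all RNAs), with a median of 1.67. In KO tissue, 14 were called higher and 0 lower (0.487% and 0.143% of all RNAs), with a median of 0.50. That KO count was 0 or 1 when any single library of the groups compared was left out. With the replicate number as a block, 84 copies were called higher and 1 lower in WT (15.2% and 3.93% of all RNAs), and 21 higher and 0 lower in KO (1.2% and 0.917%). The difference of this step between genotypes was tested as an interaction, in which neither edgeR nor DESeq2 called a copy. There, 4 copies had a lower and 0 a higher value in KO with an unadjusted p below 0.05 (3.76% and 0.086% of all RNAs).

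In WT fluid the order of the segments by median differed from that in tissue. In WT, 46 of 100 copies were called higher and 0 lower in corpus than in caput (8.21% and 9.54% of all 2023 RNAs), and 39 were called higher and 4 lower in cauda than in caput (9.69% and 15.4% of all RNAs). In KO, 20 were higher and 0 lower in corpus (11.5% and 7.86% of all RNAs), and 33 higher and 6 lower in cauda (11.5% and 14.5%). No copy had every cauda library above every corpus library, in either genotype. In tissue this order held for 117 of the 165 copies in WT and for 121 in KO. The share of all RNAs with this order was not counted. In WT the median log2 fold changes were 1.27 for corpus and 0.74 for cauda, beside -0.23 and -0.17 for all RNAs. The KO medians were nearly equal, at 0.89 and 0.88, beside -0.0066 and -0.10 for all RNAs. Cauda and corpus fluid were not tested against each other within a genotype. The WT counts fell to 24 copies for corpus without WT caput replicate 3, and for cauda, both directions together, from 43 to 21 without WT caput replicate 1. The KO counts fell further, from 20 to between 3 and 15 for corpus and from 39 to between 12 and 40 for cauda, with the lowest counts without KO caput replicate 3 in both and without KO corpus replicate 2 in the former. All caput fluid libraries carry the conflicting section label, so these comparisons rest on the titles.

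rmsk_28S_780 had 203, 317 and 293 CPM in WT caput fluid and 3157, 1292 and 1895 CPM in cauda fluid (log2 fold change 2.96 ± 0.41, SE, adjusted p = 6.02e-05). rmsk_28S_211 had 169, 223 and 195 CPM in WT caput fluid and 1335, 622 and 655 CPM in cauda fluid (log2 fold change 2.15, adjusted p = 0.000349). rmsk_28S_943, a rare copy, had 1.75 to 2.53 CPM in caput and 25.6 to 39.6 CPM in cauda fluid, and rmsk_28S_65 had 14.2 to 17.7 and 62.1 to 132 CPM. Groups did not overlap for any of these 4 copies.

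The copies called lower in cauda fluid were rmsk_28S_1073, rmsk_28S_1288, rmsk_28S_756 and rmsk_28S_831. rmsk_28S_756 had 879, 373 and 627 CPM in WT caput fluid and 236, 128 and 205 CPM in cauda (log2 fold change -1.72, adjusted p = 0.0417). In the same comparison 28S_rRNA_1 fell by 1.24 on the log2 scale (adjusted p = 0.00728), opposite to the median of the copies. Each of the 4 lower calls was lost under several of the other scalings and when libraries were left out.

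The comparison of KO with WT asked whether loss of the RNase cluster goes with altered rRNA fragments. In cauda tissue 20 of 165 copies were called lower in KO and 0 higher, whereas 0.831% of all 3488 RNAs were called lower and 0.0287% higher. The 20 copies made up most of the 29 RNAs called lower there. They held 15% of the copies' counts in WT cauda tissue on average and 3.18% in KO. All 20 had every KO library below every WT library, which held for 46 of the 165 copies and for 10.1% of all RNAs, while 1 copy had every KO library above (6.91% of all RNAs). Unadjusted p-values below 0.05 went to 38 lower and 2 higher copies (7.37% and 7.74% of all RNAs). With the replicate number as a block, which paired the cauda tissue libraries, 36 copies were called lower and 2 higher (3.56% and 5.79% of all RNAs).

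The 20 copies were far fewer profiles than names. 10 of them (rmsk_28S_876, rmsk_28S_878, rmsk_28S_879, rmsk_28S_881, rmsk_28S_882, rmsk_28S_883, rmsk_28S_890, rmsk_28S_893, rmsk_28S_896 and rmsk_28S_899) had counts within 10% of each other in every tissue library, as did rmsk_28S_873 and rmsk_28S_874. Counted so, the 20 calls came to 10 profiles. The same 10 copies also formed a near-equal set in sperm.

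rmsk_28S_893 stands for that set. It had 506, 710 and 305 CPM in the WT cauda libraries and 73.3, 93.3 and 90.3 CPM in the KO ones. Its log2 fold change was -2.56 ± 0.39 (SE, adjusted p = 0.00168). rmsk_28S_390, which had the smallest p, had 525, 731 and 346 CPM in WT and 80.2, 103 and 114 CPM in KO (log2 fold change -2.43 ± 0.35, SE, adjusted p = 0.00168). rmsk_28S_880 had 352, 556 and 215 CPM in WT and 38.4, 57.1 and 49.8 CPM in KO (log2 fold change -2.95 ± 0.44, SE, adjusted p = 0.00168). For each of these copies the highest KO library stayed far below the lowest WT library.

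rmsk_28S_108 and rmsk_28S_475 had similar levels to each other in cauda tissue. rmsk_28S_108 had 954, 585 and 575 CPM in WT cauda tissue and 94.1, 213 and 128 CPM in KO (log2 fold change -2.28 ± 0.40, SE, adjusted p = 0.00627). In corpus tissue it had 338, 142 and 388 CPM in WT and 62.1 and 102 CPM in KO, and in caput tissue 57.1, 75.6 and 60.9 CPM in WT and 41.3, 33.4 and 33.1 CPM in KO. KO libraries thus lay below WT libraries in all 3 segments, although the copy passed the test in cauda alone. The other called copies, rmsk_28S_1096, rmsk_28S_943, rmsk_28S_387 and rmsk_28S_749, were rare, at 0.743 to 21 CPM in WT cauda tissue.

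None of the 10 copies with the highest mean CPM over the tissue libraries was called. rmsk_28S_780 had 3369, 3137 and 3245 CPM in WT cauda tissue and 3211, 3197 and 2370 CPM in KO. rmsk_28S_118 had 4843, 8382 and 2242 CPM in WT and 5337, 4109 and 2514 CPM in KO. For both copies the genotypes overlapped, with log2 fold changes of -0.15 ± 0.34 and -0.37 ± 0.49 (SE). 28S_rRNA_1 had a log2 fold change of 0.23 (adjusted p = 0.847), which turned negative under library size scaling (-0.32). The ratio to 28S_rRNA_1, which no scaling changes, was lower in every KO than in every WT cauda library for all 20 called copies. These copies were picked for lower values in KO, so this order was likely from the start. It speaks only to the scaling and is no further support for the calls.

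2 copies stood higher in KO cauda tissue without being called by edgeR. rmsk_28S_1 had 1984, 3978 and 1524 CPM in WT and 9873, 10552 and 4332 CPM in KO (log2 fold change 1.73 ± 0.45, SE, adjusted p = 0.0940). Its share of the copies' counts was 4.27% ± 0.957 in WT and 17.3% ± 6.09 in KO (SD, n = 3 each), and it was the most counted copy in each KO cauda library and in no other library. rmsk_28S_846 had 130, 239 and 77.6 CPM in WT and 761, 670 and 227 CPM in KO, where the lowest KO library lay within the WT range (log2 fold change 1.89 ± 0.62, SE, adjusted p = 0.161). With the replicate number as a block both were called (adjusted p = 0.0028 and 0.00276), and with DESeq2 as well (adjusted p = 0.0127 and 0.0479).

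**Figure D3:**
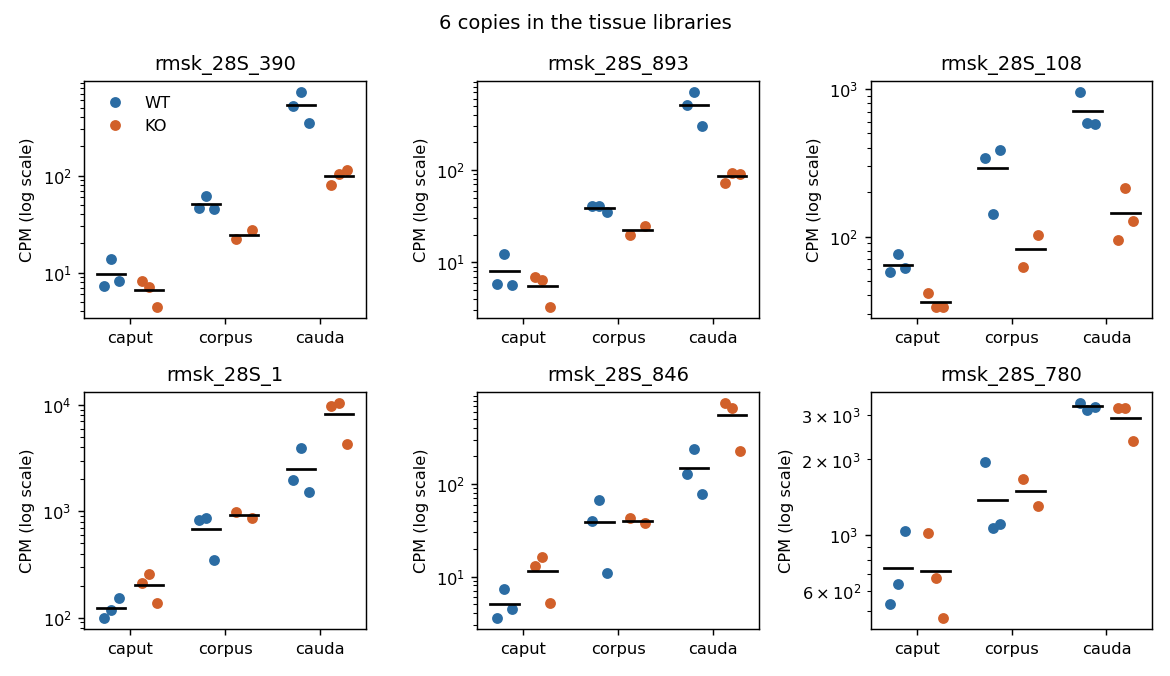
CPM (log scale) of 6 copies in each tissue library by segment (x axis); points are libraries of WT (blue) and KO (orange) and black lines are group means. rmsk_28S_390, rmsk_28S_893 and rmsk_28S_108 lie lower in KO than in WT cauda, rmsk_28S_1 lies higher in KO cauda, and the genotypes overlap there for rmsk_28S_780.

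The summed share of the copies followed in the same direction with less certainty. It was 4.61%, 4.84% and 6.42% in WT cauda tissue and 2.51%, 2.67% and 4.40% in KO, without overlap. The exact 2-sided permutation test gave p = 0.1, the smallest that 3 against 3 libraries allow, and 0.35 after adjustment over 7 comparisons. Taking the most counted copy of each library alone in place of the sum gave a log2 ratio of 0.06. That copy was rmsk_28S_118 or rmsk_28S_780 in the WT libraries and rmsk_28S_1 in each KO library. The value thus set different copies against each other and says nothing on the sum. A lower share was not particular to the copies. 28S_rRNA_1 held 3.41% to 3.74% of counts in WT cauda tissue and 2.73% to 2.93% in KO, also without overlap. The ratio of copies to the 28S sequences overlapped, at 0.586 to 0.913 in WT and 0.425 to 0.792 in KO.

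In corpus tissue 0 of 165 copies were called by edgeR (0% of all RNAs were), and 9 were called lower and 0 higher by DESeq2, which called 0.855% of the RNAs it tested lower and 0% higher. Unadjusted p-values below 0.05 went to 55 lower and 0 higher copies, against 7.22% and 0.774% of all RNAs. In 100 copies the KO libraries all lay below the WT range and in 2 above it, which held for 15.2% and 11.8% of all RNAs. The median log2 fold change of the copies was -1.18 (quartiles -1.82 and -0.73), beside -0.04 for all RNAs. The summed share was 1.12%, 1.39% and 1.77% in WT and 0.647% and 0.696% in KO, without overlap (exact permutation p = 0.2, the smallest that 3 against 2 libraries allow, and 0.467 adjusted). The share of 28S_rRNA_1 did not overlap either, at 1.09% to 1.32% in WT and 0.761% to 0.842% in KO. rmsk_28S_836 had 2597, 541 and 3295 CPM in WT and 315 and 374 CPM in KO (log2 fold change -2.64 ± 0.68, SE, adjusted p = 0.381). Smooth muscle miRNAs summed there to 44.2 to 87.5 CPM in WT and 24.3 to 29.5 CPM in KO, and the epithelial ones to 16.3 to 25.9 and 10.5 to 10.7 CPM. These sums did not overlap, but none of the 7 miRNAs passed the test, with adjusted p of 0.437 to 0.825 by edgeR. Their part was not tested.

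In caput tissue neither edgeR nor DESeq2 called a copy (0% of all RNAs by edgeR). An unadjusted p below 0.05 was found for 10 lower and 0 higher copies, against 0.659% and 0.315% of all RNAs. The median was -0.46 and the summed shares overlapped, at 0.386%, 0.516% and 1.01% in WT and 0.535%, 0.361% and 0.551% in KO. Without the WT caput library labelled cauda the median was -0.17 and the log2 ratio of the mean shares turned from -0.40 to 0.10.

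The 20 copies called in cauda tissue had negative log2 fold changes in corpus (20 of 20, from -2.17 to -0.76) and caput tissue (20 of 20, from -1.67 to -0.40), none of them called. These 20 copies stand for 10 profiles. Their medians were -0.81 in corpus and -0.53 in caput tissue, beside -1.18 and -0.46 for all tested copies. A larger effect in cauda than in caput was tested as an interaction. Neither edgeR nor DESeq2 called a copy, and an unadjusted p below 0.05 was found for 18 lower and 0 higher copies (3.67% and 2.38% of all RNAs). The interaction of rmsk_28S_893 was -2.04 ± 0.53 (SE, adjusted p = 0.342). With the replicate number as a block 14 copies were called lower and 0 higher (0.459% and 0% of all RNAs), and without WT caput replicate 2, 13 were called lower and 0 higher (0.376% and 0% of all RNAs). Between cauda and corpus tissue 0 copies were called by either tool, with 14 lower and 5 higher copies at an unadjusted p below 0.05 (3.53% and 3.87% of all RNAs).

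**Figure D4:**
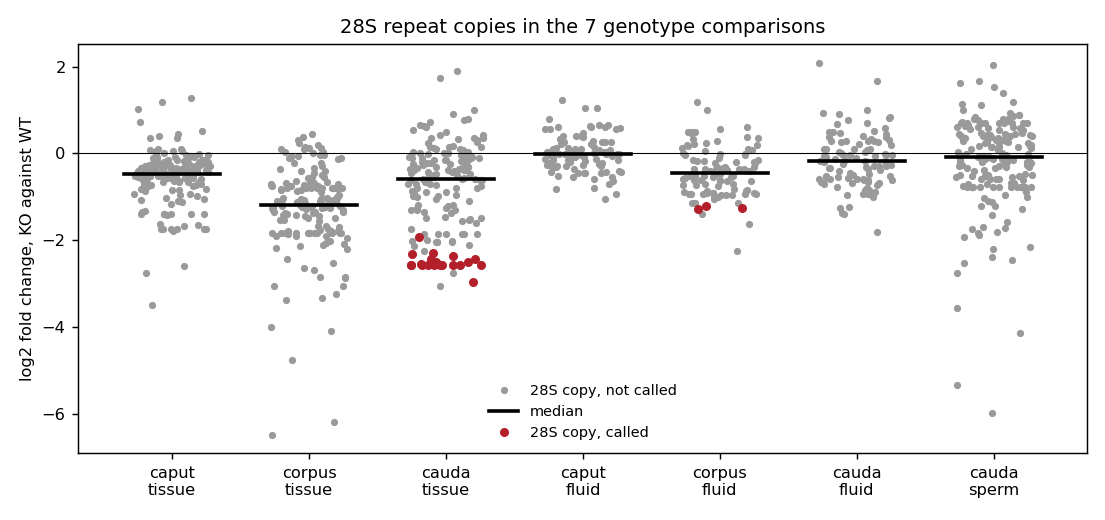
Log2 fold change of KO against WT for each tested 28S copy (points, spread sideways for visibility) in the 7 comparisons (x axis), with called copies in red and the median as a black line. The 20 called copies in cauda tissue lie between -2.95 and -1.91, and the medians lie below 0 in each tissue segment.

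In corpus fluid 3 of 100 copies were called lower in KO and 0 higher, while 6.23% of all 2023 RNAs were called lower and 13.5% higher. The share of copies called was therefore no higher than that of all RNAs. With an unadjusted p below 0.05 there were 21 lower copies and 1 higher one (12.1% and 21.7% of all RNAs), and KO lay wholly below WT for 25 copies and wholly above for 2 (15.7% and 20.4% of all RNAs). rmsk_28S_446 had 92.3, 65.1 and 82.1 CPM in WT and 27.3, 38.6 and 33.6 CPM in KO (log2 fold change -1.27 ± 0.40, SE, adjusted p = 0.0303). rmsk_28S_1238 had 95.4, 52.7 and 60.0 CPM in WT and 21.3, 32.7 and 35.6 CPM in KO (log2 fold change -1.21, adjusted p = 0.0344). rmsk_28S_462 had 79.6, 46.4 and 53.0 CPM in WT and 18.05, 33.5 and 22 CPM in KO (log2 fold change -1.28, adjusted p = 0.0344). Genotypes did not overlap for these 3 copies.

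The corpus fluid calls moved with the scaling and with single libraries. 0 copies were called with library size scaling and 54 when factors came from RNAs other than tRNA fragments, tRNAs and rRNAs. With these factors 25.1% of all RNAs were called lower and 7.46% higher. In addition, 0 copies were called without WT replicate 1 or without KO replicate 1. The median log2 fold change was -0.44, beside 0.10 for all RNAs. Summed shares were 1.18%, 1.02% and 1.17% in WT and 0.677%, 0.985% and 0.862% in KO (exact permutation p = 0.1, adjusted 0.35). KO libraries were the shallower ones there. The leukocyte Mir142 was called higher in KO by edgeR (log2 fold change 2.17, adjusted p = 0.0135), while the 2 listed leukocyte markers summed to 13.0 to 17.5 CPM in WT and 16.8 to 70.02 CPM in KO, with overlap. Without overlap, epithelial miRNAs summed to 27.1 to 62.6 CPM in WT and 87.5 to 134 CPM in KO, and those of sperm and late germ cells (3 of 3 listed) to 3.58 to 9.06 and 12.8 to 15.4 CPM, with no member of either list called. Their part was not tested.

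In caput fluid and cauda fluid 0 copies were called by edgeR (0% of all RNAs in each), and 0 and 1 by DESeq2. The 1 copy was lower in KO cauda fluid, where DESeq2 called 0.728% of the RNAs it tested lower and 2.33% higher. An unadjusted p below 0.05 was found in caput fluid for 1 lower and 1 higher copy (5.14% and 5.44% of all RNAs) and in cauda fluid for 4 and 2 (2.82% and 6.48%). In the interactions of genotype with segment in fluid 0 copies were called by either tool. Between cauda and caput, 3 lower and 2 higher copies had an unadjusted p below 0.05 (3.91% and 7.02% of all RNAs, 0% called). Between corpus and caput these were 1 and 0 (2.27% and 10.6%), where 0.148% and 1.68% of all RNAs were called, and between cauda and corpus 1 and 3 (13.1% and 10.1%), where 4.5% and 2.87% were called. The medians were -0.01 and -0.18. Of the 20 copies lower in KO cauda tissue, 4 could be tested in fluid, and in cauda fluid their log2 fold changes ran from -0.76 to 0.39. rmsk_28S_390 had 5.61, 14.6 and 4.76 CPM in WT cauda fluid and 12.6, 7.35 and 9.99 CPM in KO, where the genotypes overlapped.

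In sperm, no difference between genotypes passed the same test. 0 of 174 copies were called (0% of all 2480 RNAs), and an unadjusted p below 0.05 was found for 17 lower and 9 higher copies, against 9.48% and 8.02% of all RNAs. DESeq2 called 14 copies lower and 1 higher, with 4.44% and 0.165% of the RNAs it tested. Without WT replicate 4, edgeR called 14 copies lower and 4 higher, with 7.3% and 4.2% of all RNAs. Summed shares overlapped, at 34.8%, 41.5%, 33.6% and 35.5% in WT and 35.6%, 32.6%, 34.6% and 35.6% in KO (exact permutation p = 0.486, adjusted 0.7). The log2 ratio of the mean shares was -0.07, and it ran from -0.11 to -0.00023 when single libraries were left out.

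Several rarer sperm copies had large but uncertain differences. The copy with the smallest p, rmsk_28S_652, had 33.1, 211, 78.8 and 30.0 CPM in WT and 0.744, 7.55, 5.74 and 6.18 CPM in KO, without overlap (log2 fold change -4.13 ± 0.83, SE, adjusted p = 0.116). rmsk_28S_761 had 107, 76.1, 99.9 and 82.4 CPM in WT and 318, 192, 274 and 347 CPM in KO, also without overlap (log2 fold change 1.63 ± 0.38, SE, adjusted p = 0.116). Between them by p came rmsk_28S_927, with 26.4, 763, 59.8 and 10.1 CPM in WT and 2.91, 3.87, 4.05 and 2.75 CPM in KO (log2 fold change -5.96), and rmsk_28S_444, with 32.3, 830.5, 61.9 and 10.1 CPM in WT and 4.68, 7.42, 6.79 and 4.12 CPM in KO (log2 fold change -5.32). WT replicate 2 was the highest library for rmsk_28S_652 and for both of these. These 4 copies had the smallest p and were picked for it. Of the 20 copies lower in KO cauda tissue, 16 had positive and 4 negative log2 fold changes in sperm, with a median of 0.69 and none called. The positive ones included the 12 copies that were near-equal in tissue. 10 of these were 1 set at 0.691 to 0.696, which fixed the median. The 4 negative ones, rmsk_28S_390, rmsk_28S_943, rmsk_28S_387 and rmsk_28S_749, were each a profile of their own. By profile the direction in sperm was thus mixed.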

How the data were processed

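Small RNA libraries of mouse epididymis tissue, fluid and sperm were analyzed from the deposited tables of read counts. The authors made these counts with cutadapt, a modified tRAX and bowtie2 (-k 100, all best matches kept) on mm10, mature tRNAs and rRNA sequences, and counted genes, piRNAs and RepeatMasker rRNA repeats. The submitters' processing notes also name UMI-tools. The values are whole counts without normalization. Reads matching rRNA best were kept on rRNA sequences and repeats only, and were counted on each equally good match, so counts of copies overlap and sums over copies count a read more than once.

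Each table was fitted on its own with edgeR 4.0.16 (R 4.3.3; limma 3.58.1): filterByExpr (minimum count 10, minimum total 15), TMM, all groups in 1 quasi-likelihood model and Benjamini-Hochberg adjustment over all RNAs. DESeq2 1.42.0 was an alternative. Shares and ratios were compared with exact permutation tests (scipy 1.17.1, python 3.11.15, numpy 2.4.6, pandas 2.3.3). Figures were drawn with matplotlib 3.10.9. The members and lists were chosen with earlier results of these data known. Named copies were the 10 with the highest mean CPM per table, up to 6 per direction with the smallest p among non-overlapping calls of KO against WT, copies called in more than 1 such comparison (none were), up to 4 per direction from WT cauda against caput, the 28S sequences, and the 3 RNAs outside rRNA most like the summed copies over tissue libraries. Others named were chosen after their values were seen. Counts within 10% plus 1 count in every library, over copies with at least 10 counts in each, were called near-equal.

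Same-numbered libraries deviated together in cauda tissue (correlations of deviations from the group means of 0.27 to 0.60 over 3 pairs, all KO libraries closest to their own number). The other comparisons did not meet the rule that every pair exceed 0.1 over at least 3 pairs. Caput tissue came near it, with a mean correlation of 0.42 and 1 pair at 0.029. On simulated cauda tissue counts of 3488 RNAs, with 200 changed by a log2 fold change of 2, edgeR called 59% of the changed and 7 unchanged RNAs. No replicate pair agreed within sampling noise (chi-square per degree of freedom at least 26.5).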

Additional observations from a re-analysis of the deposited data

Results flagged for a closer look

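rmsk_28S_390 in WT sperm had 1 library far from the others. WT replicate 2 had 2003 CPM, while the other WT libraries had 292, 249 and 104 CPM and the KO libraries 72.0 to 151 CPM. The same library had the highest share of counts on 28S copies, 41.5%. Over 32 sets of 4 sperm libraries looked at, 1 stood out in this way, and about 1 in 20 would by chance.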

How the results depend on the processing

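Of 506 recomputed counts and summary values, 454 kept their direction and side of the threshold, or stayed within 1.5 times or 1 SD of the reported value. Where values moved, the cause was not tested. In cauda tissue the call count of 20 became 38 with the replicate block (36 lower, 2 higher), 10 with near-equal copies counted as 1 profile and 40 at an unadjusted p below 0.05, and the median ran from -1.31 (without KO replicate 3) to -0.42 over left-out libraries. The pairing also gave 14 calls in the interaction of cauda and caput tissue (0 to 13 over left-out libraries) and 5 in corpus fluid, where the numbers did not pair the libraries.

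In corpus fluid, DESeq2 gave 10 calls, DESeq2 size factors 5, library size 0, TMM factors from other RNAs 54, an unadjusted p below 0.05 gave 22, and leaving out libraries 0 to 5. Its median was -1.28 with the other TMM factors, -0.70 with no filter and -0.78 to -0.32 over left-out libraries. In the other KO comparisons, an unadjusted p gave 10 (caput tissue), 55 (corpus tissue), 2 (caput fluid), 6 (cauda fluid) and 26 (sperm), DESeq2 gave 9 in corpus tissue, 1 in cauda fluid and 15 in sperm, and left-out libraries gave 0 to 18 in sperm, with 18 without WT replicate 4. The cauda fluid median ran from -0.41 to 0.35. The interaction of cauda and corpus fluid had 18 calls with the other TMM factors and 0 to 1 over left-out libraries. For WT corpus against caput tissue, library size gave 35 calls and left-out libraries 35 to 61. In WT fluid left-out libraries gave 21 to 45 (cauda) and 24 to 41 (corpus).

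The log2 ratio of summed shares ran from -0.66 to 0.10 in caput tissue and from -0.32 to 0.0414 in cauda fluid over left-out libraries. With the most counted copy of each library alone it was 0.0605 in cauda tissue, -0.41 in caput fluid and 0.0612 in sperm. That copy differed between the genotypes in cauda tissue and between libraries in sperm. With rRNA left out of the total the ratio was 0.0518 in sperm. The ratio to the 28S sequences became 0.38 in cauda tissue and 0.0127 in sperm with the most counted copy of each library, under the same limit. In cauda tissue 28S_rRNA_1 turned to -0.32 (library size) and -0.26 (other TMM factors), with -0.29 to 0.46 over left-out libraries, and 28S_rRNA_2 to -0.33 and -0.26, with -0.31 to 0.47.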

Other observations

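The 3 RNAs outside rRNA whose log2 CPM was most like the summed 28S copies over the 17 tissue libraries were Gm27529-201, Gm27288-201 and Gm27907-201, which the mouse annotation lists as miRNA genes. Their Pearson r was 0.95 in each case, a description over libraries of 3 segments and not a test.

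A second near-equal set of 12 copies (rmsk_28S_877 and its partners) was seen in sperm, at a mean of 25.6 CPM in WT and 14.9 CPM in KO for rmsk_28S_877. In WT cauda tissue the same copy had a mean of 0.182 CPM, whereas rmsk_28S_893 of the other set had 507 CPM.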
